A study of Macaca mulatta with 102 samples.

Results

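The animals studied here were rhesus macaques in the weeks after an autologous hematopoietic cell transplant, in which an animal receives its own blood-forming cells back. The group is labelled Auto.D36 and holds 4 of the 102 arrays of the series, chosen by that group label alone. Animal R.62 was sampled at day 30 after transplant, and R.200, R.201 and R.202 were sampled at day 36. They are set against Healthy.Control, untransplanted macaques with 46 arrays from 45 animals, where both arrays of R.201 were averaged. All 4 recipients also gave a healthy array, so each is its own control as well. Auto.D14 (3 arrays, R.200, R.201 and R.202 at day 14) and Auto.D100 (4 arrays, R.60, R.200, R.201 and R.202 at day 100) were used for the time course. The labels name prophylaxis against graft-versus-host disease for recipients of donor cells only, and say nothing of the preparative treatment of the autologous animals. In every group the RNA, 70 to 85 ng per array, was that of blood T cells carrying CD3, purified on a cell sorter, and it was labelled with a kit that copies from the 3' end.

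After an autologous transplant T cells return along separate routes. Mature T cells that survive or are infused divide in response to homeostatic cytokines and to antigen, and tend to take on memory and effector features. New naive T cells have to be made in the thymus, which takes longer, and no attack on foreign host tissue by donor cells is involved. The labels give no T cell counts, so how far T cells had returned in Auto.D36 is not known here.

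Some features of the arrays bear on the results. R.62 lay in labelled batch 2 and the other recipients in batch 4, and each recipient's healthy array lay in the same batch as its Auto.D36 array. The log2 ratio of the 3' to the 5' actin control probe sets, a measure of RNA length, was 0.57 in R.62, -0.33 in R.200, -0.39 in R.201 and -0.32 in R.202. In healthy animals it ran from 0.25 to 3.95 with a median of 0.78, so 3 of the 4 recipients lay below every healthy animal. A score of 13 monocyte and myeloid genes, in SD of the healthy animals, was 3.37 in R.62, -0.50 in R.200, 0.09 in R.201 and 0.89 in R.202, against -1.28 to 1.60 in healthy animals (median -0.09). R.62 thus stood apart in its myeloid genes and in its day and batch. The 6 core T cell genes measured had log2 differences from healthy animals of -0.66 to 0.89 (median -0.07), 4 of them below 0. CD6 was the 1 member called higher, as defined below. Among the 6, ZAP70, the kinase next to the T cell receptor, had log2 levels of 12.5 to 12.6 in Auto.D36 and 12.2 to 12.9 in healthy animals. The CD3D and CD3E genes were not measured here.

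The question was which genes T cells of these recipients hold at another level than T cells of healthy animals. Levels are the deposited log2 values, and differences are log2 differences, Auto.D36 minus healthy unless another pair is named, ± SE, from a fit to all groups with batch. A difference of 1 is a 2-fold change, and a gene or probe set was called when its adjusted p was under 0.05. Genes whose lower group lay under 5.213, the median of all values, have an uncertain size of change. In all 2937 of 31704 probe sets were called (9.26%), 1626 higher (5.13%) and 1311 lower (4.14%), and 22.6% had an unadjusted p under 0.05. Counted by gene, 1183 of 10718 were called (11.0%), 619 higher (5.78%) and 564 lower (5.26%), and the median over all genes was -0.01. The count was sensitive to single recipients: it was 1021 probe sets without R.200, 1192 without R.201 and 1913 without R.202, and 3523 without R.62. With the actin ratio as a covariate 1359 were called, and without the 6 arrays of highest ratio, none of them in Auto.D36, 2198.

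Set against their own healthy arrays, with the animal as a block, the 4 recipients gave 82 called probe sets and 44 called genes (0.411%), 41 higher (0.383% of all genes) and 3 lower (0.0280%). This fit has only 3 residual degrees of freedom. Each of the 1183 genes called against all healthy animals had the same sign within animals, and 949 of them passed an unadjusted p of 0.05 there. Over all genes 9.36% did on the higher and 8.56% on the lower side. Both fits used the same 4 Auto.D36 arrays, and the recipients' own healthy values were among the 45. Agreement in sign, size or p between the fits is therefore favoured by the choice of genes and is not separate support. Of the 44 genes, 41 were also called against all healthy animals. The 41 higher genes included OIP5, E2F8, MCM10, CDK1, SPC25, KIF4A, CENPF and ZWINT, which act in DNA replication or mitosis and were picked after their values were seen. The 3 lower genes, also named after their values were seen, were ZBTB20, RIMKLB and THBS1. THBS1, the adhesive glycoprotein thrombospondin, had -1.16 within animals against -0.06 over all healthy animals. In the plot of both differences, called genes follow the diagonal, while S100A9 and FCN1 lie well under it.

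**Figure D1:**
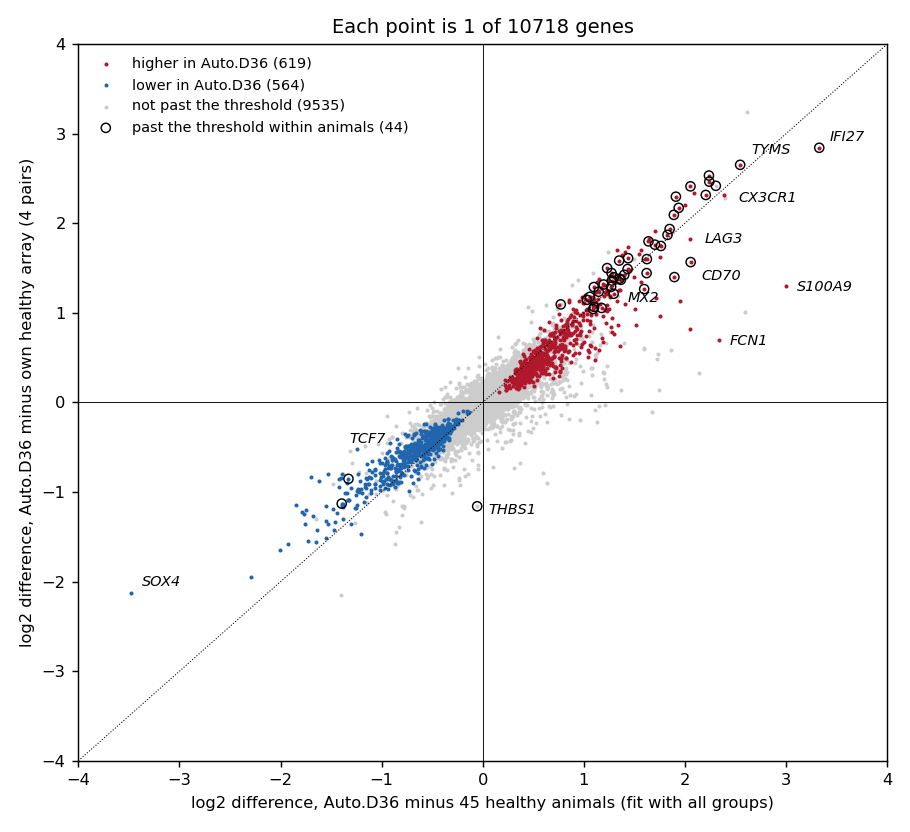
Log2 differences of 10718 genes, Auto.D36 minus 45 healthy animals (x axis) and Auto.D36 minus the same animal's healthy array (y axis, 4 pairs). Red and blue points are the 619 genes called higher and the 564 called lower over all healthy animals, circles are the 44 genes called within animals, and the dotted line marks equal differences; IFI27 and TYMS lie furthest up among the circled genes.

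Genes of cell division had the highest share of called members among the 32 lists. Of 35 listed cell cycle genes 21 were measured, and 18 of these rose and none fell (against 5.78% and 5.26% of all genes). The median difference was 1.20, against -0.01 over all genes, and all 21 were higher in each of the 4 recipients than in that animal's own healthy array (all 4 pairs were higher in 13.4% of all genes). Within animals 9 of the 21 were called higher (0.383% of all genes were), and all 21 passed an unadjusted p of 0.05 (9.36% of all genes did on the higher side). The median within-animal difference was 1.17 in R.62, 1.64 in R.200, 1.11 in R.201 and 1.06 in R.202. The other 3 members, CCNB1, AURKA and AURKB, had 0.54 ± 0.27, 0.44 ± 0.22 and 0.53 ± 0.27 and were not called. Without 1 recipient the number called was 16 to 18, and with the actin ratio as a covariate it was 17. In RNA of a whole sample, more or fewer cells of a kind and more or less RNA per cell cannot be told apart.

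Enzymes and licensing factors of DNA synthesis were among them. TYMS, which makes thymidylate, had log2 levels of 7.12 in R.62, 7.69 in R.200, 7.68 in R.201 and 6.32 in R.202, against 3.62 to 6.04 in healthy animals (median 4.71). All 4 recipients lay above every healthy animal. The difference was 2.55 ± 0.50 (adjusted p = 0.000489) and 2.65 ± 0.14 within animals (adjusted p = 0.00942). MCM4, a subunit of the replicative helicase, stood at 8.52, 9.26, 9.29 and 8.72 in R.62, R.200, R.201 and R.202, against 6.94 to 8.28 in healthy animals (median 7.48). Its groups did not overlap either, and it rose by 1.43 ± 0.24 (adjusted p = 0.000119), or 1.49 ± 0.12 within animals (adjusted p = 0.0211). The helicase subunits MCM2, MCM3 and MCM5 rose by 1.26 ± 0.22, 1.37 ± 0.26 and 1.16 ± 0.21, with no overlap between the groups. A complete absence of overlap was found in 7 of the 21 members, while over all genes it held for 0.793% on the higher and 0.187% on the lower side.

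Several genes of mitosis also rose, though AURKA, AURKB and CCNB1 were not called. MKI67, the source of the Ki-67 antigen of dividing cells, had log2 levels of 7.93, 8.51, 8.07 and 7.35 in R.62, R.200, R.201 and R.202, against 5.45 to 7.27 in healthy animals (median 6.07). R.202 was lowest and just above the highest healthy animal. MKI67 rose by 1.83 ± 0.37 (adjusted p = 0.000627), and by 1.87 ± 0.19 within animals (adjusted p = 0.0375). TOP2A, the topoisomerase that untangles replicated DNA, rose by 1.94 ± 0.50 (adjusted p = 0.00701). This call was lost with the actin ratio as a covariate (adjusted p = 0.0543). CCNB2, a mitotic cyclin, had 8.12 in R.62, 8.03 in R.200 and 7.86 in R.201 but 6.31 in R.202, inside the healthy range of 4.47 to 6.72. It rose by 2.09 ± 0.46 and missed the threshold within animals (adjusted p = 0.0507).

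**Figure D2:**
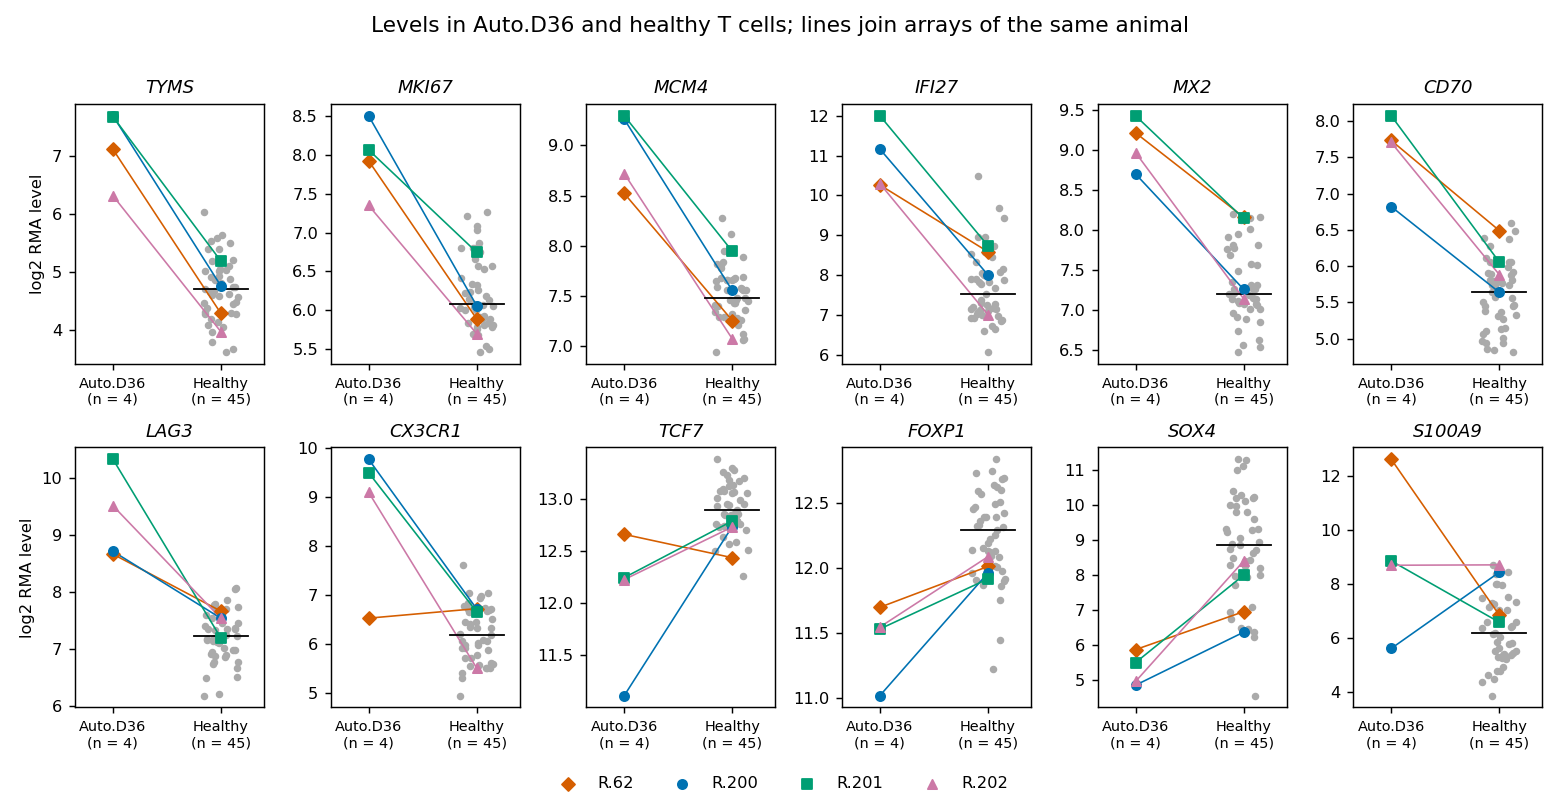
Log2 levels of 12 genes in the 4 Auto.D36 arrays (left, coloured by animal) and in 45 healthy animals (right, grey, with the median as a bar; the same 4 animals are coloured), with lines joining arrays of the same animal. TYMS, MKI67, MCM4, MX2, CD70 and LAG3 do not overlap between the groups, while S100A9 reaches 12.61 in R.62 and at most 8.69 in healthy animals.

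Genes outside that list that belong to dividing cells stood among the 15 largest rises. UHRF1, which maintains DNA methylation at replication, had levels of 7.53, 8.28, 8.09 and 6.98 in R.62, R.200, R.201 and R.202, against 4.72 to 6.90 in healthy animals (median 5.49). It rose by 2.21 ± 0.44 without overlap, and by 2.31 ± 0.12 within animals (adjusted p = 0.00942). SHCBP1, a protein needed at the end of cell division, rose by 2.24 ± 0.44 and did not overlap either. MELK, a kinase abundant in dividing cells, rose by 2.05 ± 0.38, with 1 healthy animal inside the range of the recipients. Of the 15 largest rises 7 were called within animals, 10 were higher in all 4 pairs and 5 had no overlap. Over all genes the shares on the higher side were 0.383%, 13.4% and 0.793%. The 15 were picked by size in these same arrays, which favours such counts.

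Other large rises were not tied to division. IFT46, a subunit of the transport complex of cilia, had levels of 8.55, 10.19, 9.77 and 8.44 in R.62, R.200, R.201 and R.202, against 5.51 to 8.55 in healthy animals. It rose by 2.24 ± 0.54, and by 2.46 ± 0.29 within animals (adjusted p = 0.047), but 1.05 as the mean of both its probe sets. MB, the oxygen-binding protein myoglobin, had levels of 5.93 in R.62 and 7.47 to 9.15 in the recipients sampled at day 36, against 4.79 to 7.42 in healthy animals. The difference was 2.00 ± 0.38, or 2.83 without R.62. CCR3, the eotaxin receptor, rose by 1.95 ± 0.47 (adjusted p = 0.00387). Its within-animal differences were -0.20 in R.62 and 0.12 in R.200 but 2.89 in R.201 and 1.72 in R.202, and its call was lost without R.201 (adjusted p = 0.0523).

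Interferon-induced genes rose in part. Of 30 listed, 20 were measured, of which 8 rose and 1 fell (5.78% and 5.26% of all genes did), with a median of 0.75. Within animals IFI27, MX2, ISG15 and EPSTI1 were called higher, 4 of 20 (0.383% of all genes were). In all 4 pairs 13 of the 20 had the same sign as against all healthy animals (2884 of all 10718 genes did). IFI27, which had the largest rise of all genes, stood at 10.26 in R.62, 11.16 in R.200, 12.00 in R.201 and 10.29 in R.202, against 6.07 to 10.49 in healthy animals (median 7.53). A single healthy animal reached the range of the recipients. The difference was 3.33 ± 0.56 (adjusted p = 9.23e-05), and 2.84 ± 0.29 within animals (adjusted p = 0.0375). MX2, an antiviral GTPase, had 9.21, 8.70, 9.43 and 8.97 in R.62, R.200, R.201 and R.202, against 6.48 to 8.20 in healthy animals (median 7.20). No healthy animal overlapped, and it rose by 1.89 ± 0.37.

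Among the other called members, ISG15, a ubiquitin-like modifier, rose by 1.62 ± 0.39 and BST2, which tethers budding virus to cells, by 0.79 ± 0.19. OAS2, a sensor of double-stranded RNA, rose by 1.06 ± 0.31, a call lost with the actin ratio as a covariate (adjusted p = 0.147). XAF1, EPSTI1 and STAT2, a subunit of the interferon-activated transcription factor complex, rose by 0.98 ± 0.29, 1.09 ± 0.36 and 0.39 ± 0.13. OAS1, of the same family as OAS2, fell by 0.55 ± 0.16, and of its 4 probe sets 1 was called higher and 1 lower. Canonical members such as MX1 (1.16 ± 0.49), IFIT1 (0.95 ± 0.65), IFIT3 (0.56 ± 0.42) and IRF7 (-0.12 ± 0.14) were not called. No single recipient carried IFI27, MX2 or ISG15, whose calls held without each one. The number called higher was 4 without R.200, without R.201 and with the actin ratio as a covariate.

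Inhibitory receptors, which restrain activated T cells, rose in 5 of 12 measured members and none fell (5.78% of all genes rose and 5.26% fell). LAG3, a receptor for MHC class II molecules, had levels of 8.66, 8.71, 10.32 and 9.51 in R.62, R.200, R.201 and R.202, against 6.18 to 8.07 in healthy animals (median 7.23). All recipients lay above all healthy animals, and the rise was 2.05 ± 0.35 (adjusted p = 0.000119). Within animals LAG3 differed by 1.82 ± 0.35 and was not called (adjusted p = 0.0925). ENTPD1 (the ectonucleotidase CD39), VSIR (VISTA), HAVCR2 (TIM-3) and LILRB1 rose by 1.06 ± 0.28, 0.89 ± 0.26, 0.67 ± 0.19 and 0.52 ± 0.17. VSIR and LILRB1 were not called with the actin ratio as a covariate, and no member was called within animals. Without R.201 only LAG3 of this list was called (1 of 12), and without R.62 2 were called higher and 1 lower. TIGIT (0.43 ± 0.25) and CTLA4 (0.32 ± 0.35) were not called.

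Of 14 measured members of the costimulation list 2 rose and 1 fell (5.78% and 5.26% of all genes did), and the median difference was 0.33. The mean level of the list was 8.09 in R.62, 7.75 in R.200, 8.12 in R.201 and 8.08 in R.202, against 7.34 to 8.07 in healthy animals, so that R.200 alone lay inside the healthy range. CD70, the ligand of CD27 that activated lymphocytes carry, had levels of 7.73, 6.82, 8.07 and 7.71 in R.62, R.200, R.201 and R.202, against 4.81 to 6.60 in healthy animals (median 5.64). The groups did not overlap, and CD70 rose by 2.06 ± 0.31 (adjusted p = 2.08e-05) and by 1.57 ± 0.17 within animals (adjusted p = 0.0397). SLAMF1, a self-binding receptor of activated T cells, rose by 0.75 ± 0.25, a call lost when any one recipient was left out. TNFRSF25, the receptor DR3, fell by 0.80 ± 0.20, with levels of 11.28 in R.62, 9.57 in R.200, 10.25 in R.201 and 10.80 in R.202 against 10.71 to 11.90 in healthy animals. Without R.200 it had -0.53 (adjusted p = 0.153), and as the mean of its probe sets -0.34 (adjusted p = 0.231). CD28 and TNFRSF4, which encodes OX40, had -0.04 ± 0.28 and 0.34 ± 0.19 and were not called.

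Among receptors that guide migration, 3 of 14 measured members rose and none fell (5.78% of all genes rose and 5.26% fell). CX3CR1, the fractalkine receptor of cytotoxic effector cells, had levels of 9.76 in R.200, 9.49 in R.201 and 9.09 in R.202, against 4.95 to 7.61 in healthy animals (median 6.18). The level of R.62, 6.53, lay inside the healthy range. CX3CR1 rose by 2.38 ± 0.38 (adjusted p = 5.16e-05) and by 3.29 without R.62, while within animals the 4 pairs gave -0.19, 3.05, 2.83 and 3.58 (adjusted p = 0.13). CCR2, the receptor for monocyte chemoattractant proteins, rose by 1.55 ± 0.40 and was not called with the actin ratio as a covariate (adjusted p = 0.0935). CCRL2, an atypical chemokine receptor, rose by 1.56 ± 0.40. The lymph node receptor CCR7 had 9.73, 8.44, 9.98 and 9.69 in R.62, R.200, R.201 and R.202, against 8.32 to 11.17 in healthy animals, a difference of -0.44 ± 0.36 that was not called.

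Cytotoxic effector genes lay higher in the medians without passing the test. Of 19 measured members only SERPINB9, which protects killer cells from granzyme B, was called, at 1.23 ± 0.28 (5.78% of all genes were called higher). Yet 18 of 19 differences were above 0 (5200 of all 10718 genes were), and the list median was 0.78. Within animals the median was 0.32, with -0.07 in R.62, 0.55 in R.200, 0.83 in R.201 and 0.14 in R.202. Only 2 of the 19 had, in every pair, the same sign as against all healthy animals (2884 of all 10718 genes did). NKG7, a granule membrane protein, came closest, at 1.12 ± 0.39 (adjusted p = 0.0545, or 0.0443 without R.62), with levels of 11.29, 12.52, 12.07 and 11.95 in R.62, R.200, R.201 and R.202 against 9.21 to 12.10 in healthy animals. GZMB, which encodes granzyme B, had 0.78 ± 0.36 and GNLY, which encodes granulysin, 0.83 ± 0.42. The effector regulators TBX21 and EOMES had 0.68 ± 0.45 and 0.33 ± 0.36. In their list BATF, a factor induced by T cell activation, was the called member of 12, at 0.75 ± 0.21. The call of BATF was lost without R.200 and without R.201. CD8A, CD8B and CD4 had 0.35 ± 0.16, 0.52 ± 0.26 and 0.40 ± 0.19 and were not called. As the mean of both its probe sets CD8A had 0.70 (adjusted p = 0.0128), and it had 0.56 without R.62 (adjusted p = 0.0351).

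Of 17 measured genes typical of naive and central memory cells 5 fell and none rose (5.26% and 5.78% of all genes did), with a list median of -0.31. TCF7, the transcription factor TCF-1 of naive and stem-like T cells, had levels of 12.66 in R.62, 11.12 in R.200, 12.25 in R.201 and 12.23 in R.202, against 12.26 to 13.38 in healthy animals (median 12.89). R.200 was lowest, R.201 and R.202 lay just under the healthy range and R.62 lay inside it. TCF7 fell by 0.82 ± 0.18 (adjusted p = 0.00194), and all 3 of its probe sets were called lower. FOXP1, which keeps naive T cells quiescent, fell by 0.83 ± 0.17 (adjusted p = 0.000766) and was lower in all 4 pairs, though as the mean of its 4 probe sets it missed the threshold (-0.64, adjusted p = 0.0538). MYC, KLF7 and PIK3IP1, an inhibitor of PI3 kinase, fell by 1.12 ± 0.32, 0.88 ± 0.28 and 0.80 ± 0.23. As the mean of all probe sets KLF7 and PIK3IP1 had -0.47 and -0.35 and were not called.

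These falls rested in part on R.200. Its within-animal median over the naive and central memory list was -0.94, against 0.15 in R.62, -0.32 in R.201 and -0.22 in R.202. Without R.200 FOXP1 alone of the list was called lower (1 of 17). In that fit TCF7 had -0.53 (adjusted p = 0.0882). No member was called within animals, where 5 passed an unadjusted p of 0.05 on the lower side (8.56% of all genes did). With the actin ratio as a covariate 6 were called lower. LEF1, IL7R and CD27 were not measured here.

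The fall of greatest size was that of SOX4, a transcription factor of developing T cells that recent emigrants from the thymus still carry. Its levels were 5.87, 4.85, 5.50 and 4.96 in R.62, R.200, R.201 and R.202, against 4.55 to 11.30 in healthy animals (median 8.85). A single healthy animal lay in or below the range of the recipients. SOX4 fell by 3.48 ± 0.77 (adjusted p = 0.00191), while within animals the difference was -2.13 ± 0.37 (adjusted p = 0.0849), where the same animals had healthy levels of 6.95, 6.36, 7.99 and 8.39. As the mean of its 3 probe sets SOX4 had -2.17. PECAM1, the adhesion molecule CD31 that marks recent emigrants among human CD4 T cells, was the other called member of 7 measured in the list of recent thymic emigrants. It had 11.93 in R.62 but 9.35, 10.94 and 10.65 in R.200, R.201 and R.202, against 10.88 to 12.47 in healthy animals, and fell by 0.94 ± 0.24, a call lost without R.200 (adjusted p = 0.234), with the actin ratio as a covariate (adjusted p = 0.0828) and as the mean of all probe sets (adjusted p = 0.0655). PTK7, a receptor-like protein of human recent emigrants, had 0.62 ± 0.21 and was not called (adjusted p = 0.0507). The list of recent thymic emigrants had a median difference of 0.01, with 4 of its 7 measured members above 0 and 3 below. Of all genes 5.26% were called lower.

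The other large falls were uneven in size over the animals. Of the 15 largest, 13 were lower in all 4 pairs, none was called within animals and none was free of overlap. Over all genes the shares on the lower side were 14.1%, 0.0280% and 0.187%. These 15 too were picked by size in these same arrays, which favours lower values in the pairs. MAML3, a coactivator of Notch, had levels of 6.82 in R.62, 4.06 in R.200, 5.40 in R.201 and 5.14 in R.202, against 5.98 to 8.60 in healthy animals, and fell by 2.01 ± 0.39. AXIN2, a scaffold and target of Wnt signalling, fell by 1.75 ± 0.39, IRS2, an adaptor of insulin signalling, by 1.73 ± 0.38 and RASGRF2, an exchange factor for Ras, by 1.93 ± 0.37. HOOK1, a linker of endosomes to microtubules, fell by 1.85 ± 0.35 and MAN1C1, a mannosidase of the Golgi, by 1.65 ± 0.31. The members of transporter families SLC14A1, SLC16A10 and SLC22A23 had -1.76 ± 0.49, -1.70 ± 0.50 and -1.68 ± 0.45. LOC699035, AUTS2, RFLNB, CD33 and PDE6H had -2.29 ± 0.61, -1.78 ± 0.43, -1.76 ± 0.40, -1.64 ± 0.46 and -1.62 ± 0.49. Without R.200 the calls of LOC699035, AUTS2, SLC14A1, SLC16A10, CD33 and PDE6H were lost. In the heat map the differences of these 15 genes ran from -1.08 to 0.25 in R.62, from -3.24 to -0.96 in R.200, from -2.49 to -0.25 in R.201 and from -3.43 to -1.28 in R.202.

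**Figure D3:**
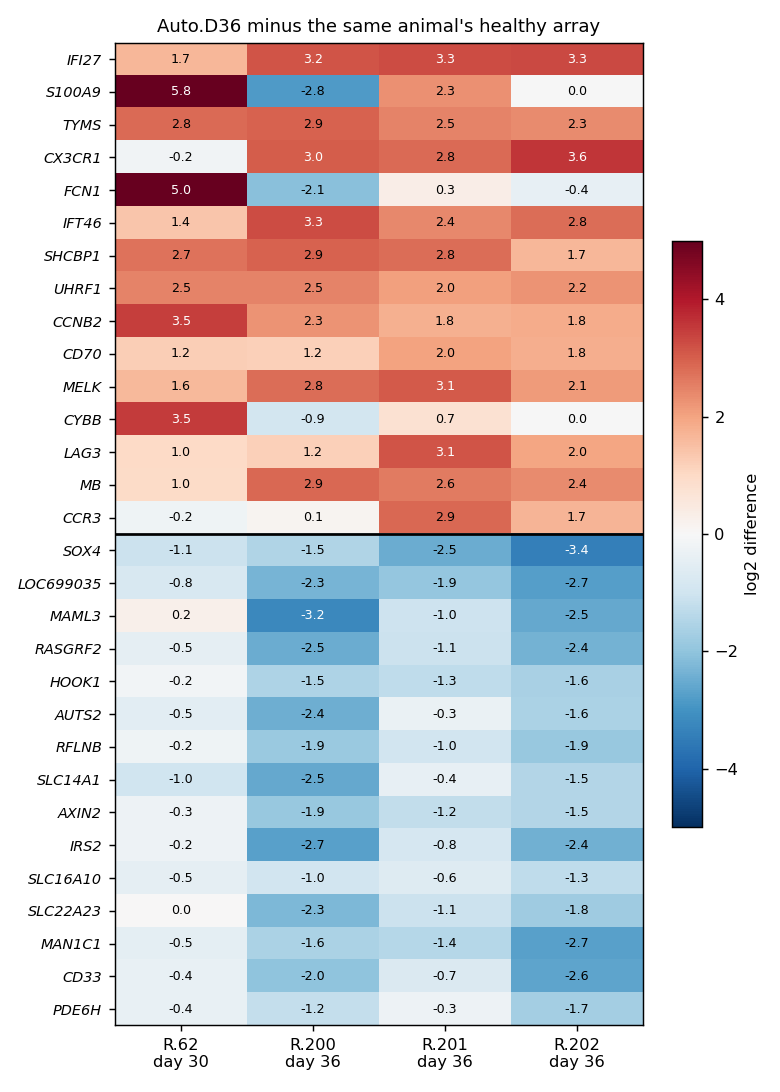
Within-animal log2 differences (Auto.D36 array minus the same animal's healthy array) of the 15 genes with the largest rises (above the line) and the 15 with the largest falls, in the 4 recipients; red is higher in Auto.D36. TYMS is raised by 2.35 to 2.94 in all animals, whereas S100A9 runs from -2.82 in R.200 to 5.77 in R.62.

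Glycolytic genes rose in 5 of 17 measured members and none fell (5.78% of all genes rose and 5.26% fell), with a median of 0.22. LDHA, which makes lactate, had levels of 12.72, 12.60, 12.83 and 12.67 in R.62, R.200, R.201 and R.202, against 11.61 to 12.38 in healthy animals (median 12.06). Its groups did not overlap, and it rose by 0.68 ± 0.12 (adjusted p = 0.000194). GAPDH also had no overlap and rose by 0.81 ± 0.18, and TPI1 by 0.81 ± 0.20. PKM and ENO1 rose by 0.46 ± 0.14 and 0.22 ± 0.08. With the actin ratio as a covariate LDHA and GAPDH were called (2 of 17), GAPDH at 0.55, and TPI1 had 0.40 (adjusted p = 0.102). None was called within animals.

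In oxidative phosphorylation 3 of 22 measured members rose, NDUFA2 by 0.34 ± 0.10, UQCRC1 by 0.31 ± 0.10 and ATP5F1B by 0.64 ± 0.21. Of all genes 5.78% rose and 5.26% fell, the background for this list and the next ones. In all 4 pairs 14 of the 22 oxidative phosphorylation genes had the same sign as against all healthy animals (2884 of all 10718 genes did). Of 14 genes of sterol and lipid synthesis IDI1 and DHCR7 rose, by 0.69 ± 0.20 and 0.47 ± 0.15. With the actin ratio as a covariate all 5 of these calls were lost, with ATP5F1B, a subunit of ATP synthase, at 0.19 (adjusted p = 0.508), NDUFA2 at 0.30 (adjusted p = 0.0845) and IDI1 at 0.50 (adjusted p = 0.141). None of 11 genes of mTORC1 signalling and amino acid uptake was called. Of 8 heat shock and stress genes HSPA8, a constitutive chaperone, and XBP1, a factor of the unfolded protein response, rose by 0.49 ± 0.13 and 0.43 ± 0.14.

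Of the signalling lists, 3 of 19, 2 of 16 and 3 of 12 members were called for homeostatic cytokines, the T cell receptor and regulatory T cells, against 11.0% of all genes. Among the 19 genes of homeostatic cytokine signalling STAT3 and JAK3 rose, by 1.44 ± 0.42 and 0.58 ± 0.19, and IL6R, a subunit of the interleukin 6 receptor, fell by 0.90 ± 0.29. STAT3 had levels of 6.87 in R.62, 8.54 in R.200, 9.28 in R.201 and 8.77 in R.202, against 4.35 to 8.04 in healthy animals. R.62 lay inside the healthy range and the others above it. With the actin ratio as a covariate STAT3 had 0.51 (adjusted p = 0.309), JAK3 0.31 (adjusted p = 0.317) and IL6R -0.94 (adjusted p = 0.0543), so none of the 3 was called. BCL2, a survival factor downstream of these cytokines, had -0.16 ± 0.19. In T cell receptor signalling SH2D1A (the adaptor SAP) and CD6 rose among 16, by 0.83 ± 0.24 and 0.89 ± 0.27, and neither was called with the actin ratio as a covariate. In the list of regulatory T cell genes TGFB1, ENTPD1 and BATF rose among 12, while their lineage factor FOXP3 had 0.02 ± 0.14. TGFB1 rose by 1.17 ± 0.32, with 0.74 (adjusted p = 0.129) under the actin covariate.

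All calls of the homeostatic cytokine, T cell receptor and regulatory T cell lists were lost without R.201. So were those of the effector transcription factor, oxidative phosphorylation, sterol, heat shock, apoptosis, TGF-beta and integrin lists. R.201 was not alone in this. Without R.200 all calls of the T cell receptor, effector transcription factor, sterol, heat shock, TGF-beta and integrin lists were lost too. Those of the homeostatic cytokine list were also lost without R.202.

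The next lists are set beside 5.78% of all genes that rose and 5.26% that fell. Apoptosis genes rose in 3 of 15 members, the pro-apoptotic BAX, BAK1 and BCL2L11 by 0.63 ± 0.18, 0.59 ± 0.15 and 0.69 ± 0.22. Of 17 genes of NF-kB and TNF signalling, the inhibitor NFKBIB rose by 0.48 ± 0.11, and the kinase IKBKB and NFKBIZ fell by 0.51 ± 0.13 and 0.74 ± 0.22; as means of all probe sets none of the 3 was called. In the TGF-beta pathway (11 measured) SMAD3 and PMEPA1 fell by 0.34 ± 0.10 and 0.67 ± 0.23 and TGFB1 rose, while SMAD3 as the mean of its 4 probe sets had 0.12. Of 14 integrin and adhesion genes ITGB2, the common chain of the leukocyte integrins, rose by 0.56 ± 0.18 and ITGA6 fell by 0.75 ± 0.24. These are 7.14% each way, near the shares of all genes. Immediate early genes, which respond within minutes to stimulation or handling, had a median of -0.41 and of -0.77 within animals. The animals were uneven, with within-animal medians of -0.03 in R.62, -1.30 in R.200, -0.22 in R.201 and -0.97 in R.202. MYC alone of 14 was called lower. In all 4 pairs 6 of the 14 had the same sign as against all healthy animals (2884 of all 10718 genes did). Within animals 7 passed an unadjusted p of 0.05 on the lower side (8.56% of all genes did).

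**Figure D4:**
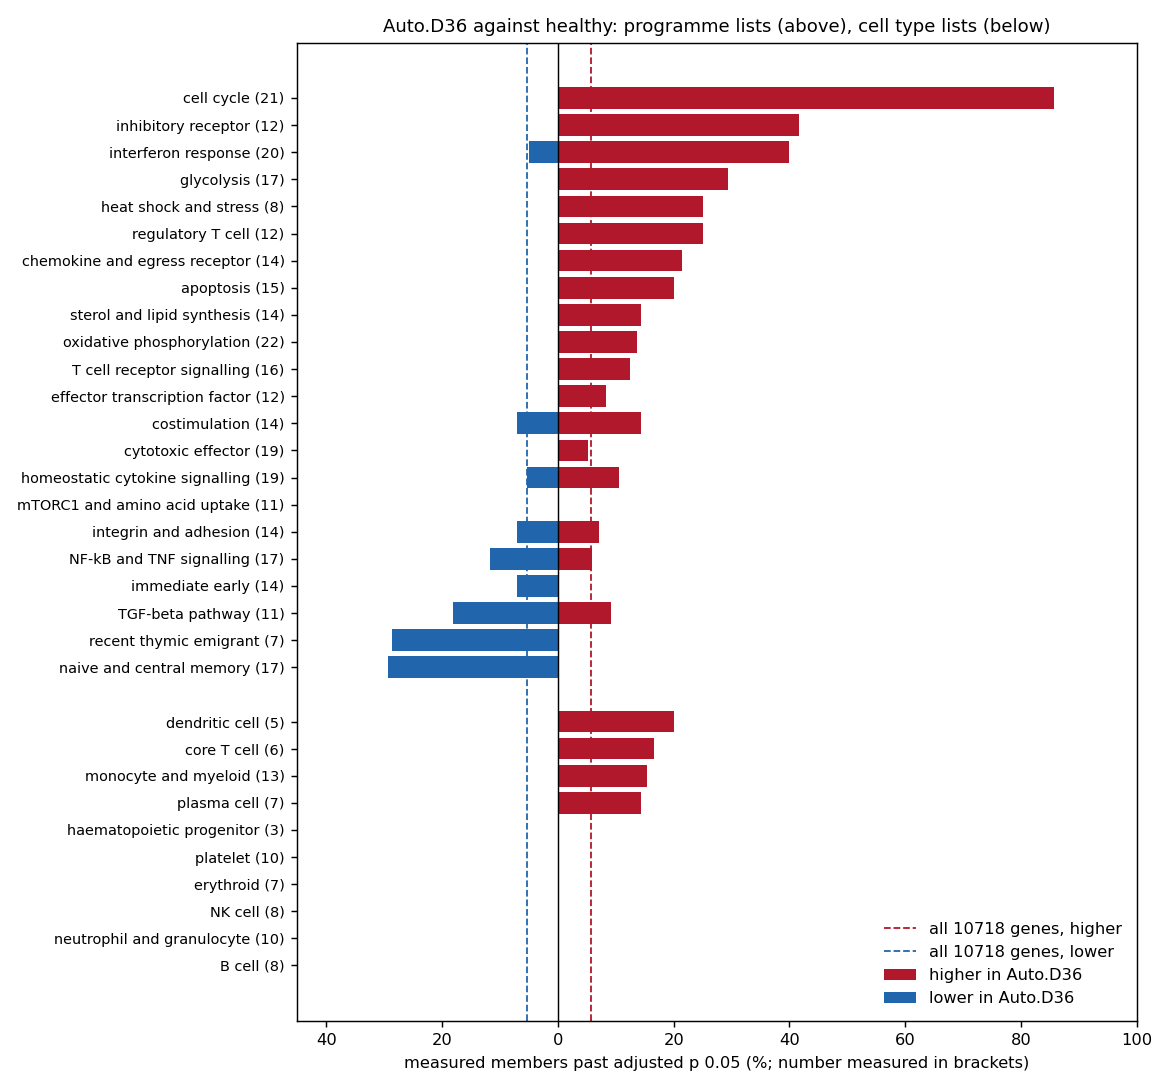
Share of the measured members of each list that were called higher (red, to the right) or lower (blue, to the left) in Auto.D36 against healthy animals, with the shares over all 10718 genes as dashed lines (5.78% higher, 5.26% lower). Cell cycle genes lead on the higher side with 18 of 21, and naive and central memory genes on the lower side with 5 of 17.

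Markers of other cells were followed to see what else the sorted samples held. Of 13 monocyte and myeloid genes S100A9, a calprotectin subunit, and FCN1, the lectin ficolin 1, were called higher (5.78% of all genes were). S100A9 had levels of 12.61 in R.62, 5.60 in R.200, 8.84 in R.201 and 8.68 in R.202, against 3.86 to 8.69 in healthy animals (median 6.16). It rose by 3.00 ± 0.99 (adjusted p = 0.0399), but by 1.38 (adjusted p = 0.527) without R.62. FCN1 had 10.77 in R.62 and 5.49 to 6.80 in the other recipients, against 3.76 to 7.75 in healthy animals, and its 2.33 ± 0.79 became 0.77 (adjusted p = 0.682) without R.62. CYBB, the oxidase subunit of phagocytes that ranked among the largest rises, had 9.47 in R.62 and 6.36 to 6.76 in the others, against 3.87 to 7.27. Its difference of 2.05 ± 0.61 was 1.07 (adjusted p = 0.388) without R.62. The monocyte genes LYZ, VCAN and CD14 had 12.53, 10.87 and 8.85 in R.62, above the healthy maxima of 9.96, 8.22 and 8.08, and none of these 3 was called. The calls of S100A9 and FCN1 were lost without R.201 (adjusted p = 0.107 and 0.0678) and without R.202 (adjusted p = 0.0806 and 0.0729) as well.

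None of 8 B cell, 10 neutrophil and granulocyte, 8 NK cell, 7 erythroid, 10 platelet or 3 progenitor genes was called against all healthy animals. The erythroid median was above 0 within each animal, at 0.56 in R.62, 0.34 in R.200, 0.13 in R.201 and 0.15 in R.202. HBA, a haemoglobin alpha gene outside the list as spelled and named after its values were seen, was among the 44 genes called within animals, at 2.42 ± 0.17 (adjusted p = 0.0153). Over all healthy animals it had 2.30 ± 1.00 and was not called (adjusted p = 0.142). HBB, the beta chain, had 1.49 ± 0.64 and was not called either. The part of erythroid RNA in the other results was not tested. The B cell gene MS4A1, which encodes CD20, had 6.19, 3.76, 3.75 and 4.23 in R.62, R.200, R.201 and R.202, against 3.88 to 7.73 in healthy animals. XBP1 was the called member of 7 plasma cell genes, with JCHAIN at -0.83 ± 0.37, and IRF8 the called member of 5 dendritic cell genes, at 1.02 ± 0.30. Of all genes 11.0% were called. The call of IRF8 was lost without R.62 (0.73, adjusted p = 0.193), without R.201 (0.83, adjusted p = 0.137) and with the myeloid score as a covariate (0.86, adjusted p = 0.0516). The myeloid score as a covariate left 18 cell cycle genes and 7 interferon genes called higher and 2909 probe sets called in all. The part of other cells in single genes was not tested beyond that.

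The 3 autologous time points ask whether day 36 differs from an earlier and a later day after transplant. Against Auto.D14 533 genes were called (4.97%), 299 higher (2.79%) and 234 lower (2.18%), and 2240 probe sets (7.07%), 1788 higher and 452 lower. The higher ones made up 79.8%, or 61.4% after a further quantile normalization, which moved the median of all probe sets to -0.10, against -0.04 without it. Auto.D14 and Auto.D36 share no batch, and Auto.D14 of R.201 and R.202 had actin ratios of 3.30 and 3.38, near the top of the healthy range. No probe set was called in limma's fit with that ratio as a covariate (1648 at an unadjusted p under 0.05) or without the arrays of high ratio (535 at an unadjusted p under 0.05), and 7 were called within animals. The largest rises against Auto.D14 were LOC709412 (3.63), HSH2D (3.26), TST (3.18), EIF3L (3.13) and STAT3 (3.12). CX3CR1 was 2.26 higher than at day 14, with a mean of 8.72 in Auto.D36 and 6.25 in Auto.D14. None of the 21 cell cycle genes and none of the 20 interferon genes was called between these days.

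Against Auto.D100 no probe set was called in limma's fit to all groups (1492, or 4.71%, had an unadjusted p under 0.05). With the animal as a block, over R.200, R.201 and R.202 alone, 564 were called, 229 higher and 335 lower at day 36, although in these animals day 36 lay in batch 4 and day 100 in batch 5, so that time and batch cannot be told apart there. By gene 47 were called higher and 116 lower in that fit. IFI27 was 2.62 ± 0.33 higher at day 36 within animals, CD70 1.35 ± 0.21, CX3CR1 1.14 ± 0.14 and ISG15 1.07 ± 0.12, while SOX4 was lower (-1.80 ± 0.19). In the fit to all groups, where none was called, these genes had 2.15, 1.12, 0.33, 0.68 and -1.54. Within animals CDC45 and GINS2 of the 21 cell cycle genes were called higher, and the list median was 0.83.

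The mean log2 level of the cell cycle list followed this course in single animals. Its healthy range was 6.07 to 7.22. R.200 had 7.37 at day 14, 8.23 at day 36 and 6.84 at day 100, and R.201 had 7.62, 8.11 and 7.35 at these days. R.202 was highest at day 14, with 7.94, followed by 7.25 and 7.00. At day 36 all 4 recipients lay above the healthy range, and at day 100 R.201 alone of 4 did. The interferon response list, with a healthy range of 7.75 to 8.72, stood at 8.76, 9.29 and 9.38 at day 14 in R.200, R.201 and R.202 and at 8.85, 9.27 and 8.52 at day 36. Over the naive and central memory list R.200 had 8.74, 8.30 and 8.63 at days 14, 36 and 100, against a healthy range of 8.62 to 9.74, and the other recipients stayed between 8.92 and 9.10.

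**Figure D5:**
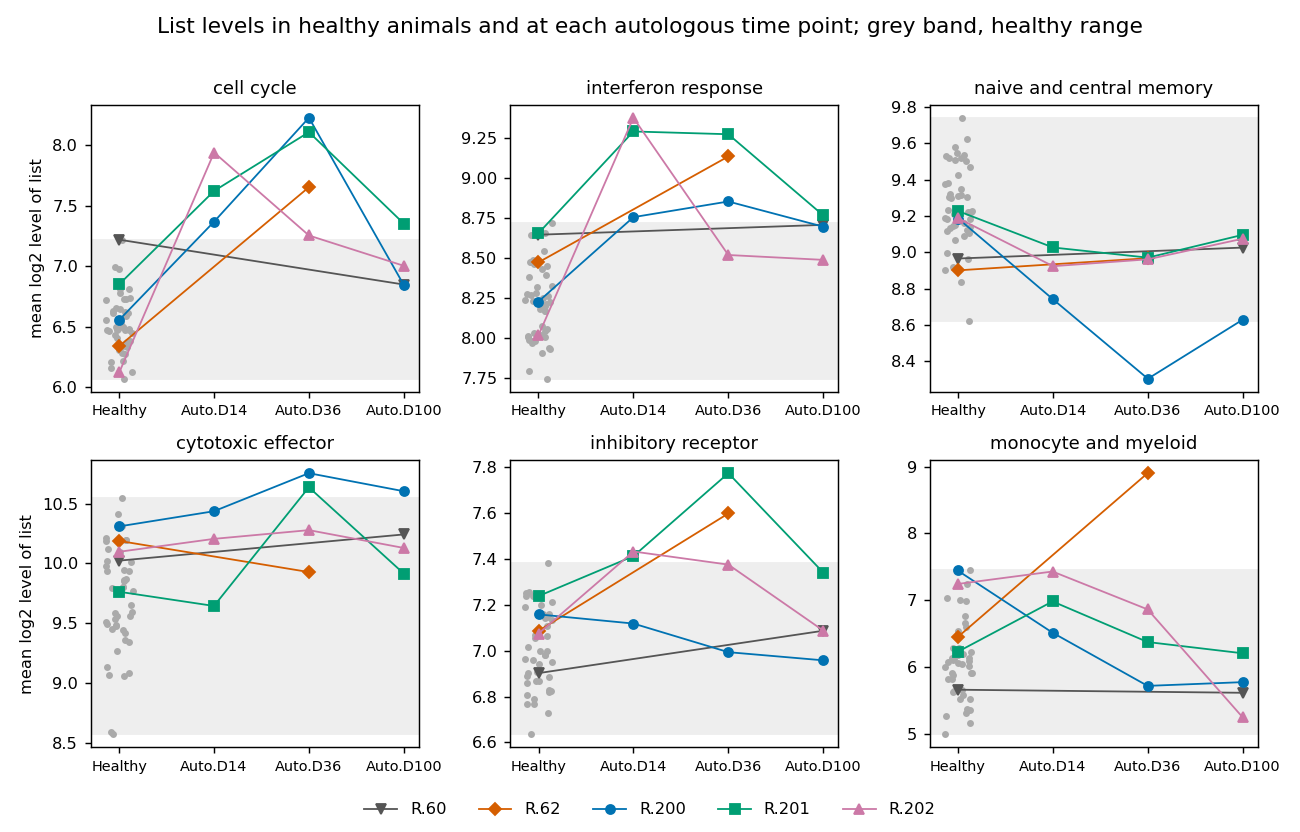
Mean log2 level of 6 gene lists in healthy animals and at the 3 autologous time points, with lines joining arrays of the same animal and the healthy range as a grey band (45 animals). The cell cycle list lies above the healthy range in all 4 recipients at Auto.D36, and the monocyte and myeloid list does so in R.62.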

How the data were processed

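Gene expression of sorted CD3-positive T cells was measured on Affymetrix rhesus arrays. The deposited values are log2 intensities that the authors normalized by RMA, with affy named in the submitters' processing notes, and the versions are not given in the sources used here. The table holds 52865 probe sets in 102 arrays, with array medians of 5.13 to 5.35, and the number of arrays limits the precision. An F test of batch among healthy animals passed an unadjusted p of 0.05 in 0.255% of probe sets, where chance gives 5%. The deposited values thus held less batch variation there than chance gives. Whether they were adjusted for batch before deposition is not stated in the labels and was not tested. The fit took batch from these same values, and what this does to its SE and p values was not tested beyond a fit without a batch term.

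Control probe sets (158) were left out, and 31704 probe sets with at least 3 arrays at or over the table median were kept. Genes came from the platform annotation (24969 probe sets with 1 gene, 361 with several, 27535 with none), of which 24629 matched RefSeq by identifier, with 0 symbols changed. Each of 10718 genes took the probe set of highest mean among those naming that gene alone, and 14 called genes had another probe set called in the other direction. Levels of different probe sets were not compared.

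limma 3.58.1 in R 4.3.3 was fitted to 101 columns, all 16 groups with the labelled batch (6 batches), with 80 residual and 3.38 prior degrees of freedom and Benjamini-Hochberg adjustment over 31704 probe sets. The pairing comes from the animal ID in the labels. The deviations of each Auto.D36 array and the same animal's healthy array correlated at 0.151 (R.62), 0.240 (R.200), 0.428 (R.201) and 0.150 (R.202), and the within-animal fit took the animal as a block, with 3 residual degrees of freedom. The 2 healthy arrays of R.201 correlated at 0.995 and were averaged.

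Genes were named by rule: the 15 largest rises and falls, up to 6 called members of each list, the 5 largest rises and falls against the other time points, and a fixed set of T cell genes. The 22 programme and 10 cell type lists are described by counts and medians, with no set test. The members and lists were chosen with earlier results of these data known. Genes of antigen receptors, MHC and KIR are left unnamed, since their probes may bind related copies. The fit was tested on simulated data. Alternatives dropped the batch term, took the animal as a fixed or random block, used the groups or batches concerned alone, changed the filter, the prior or the array weights, added quantile normalization or a 2-fold minimum, left out each animal, or used either array of R.201, all probe sets of a gene, and the actin ratio or myeloid score as covariates.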

Additional observations from a re-analysis of the deposited data

Results flagged for a closer look

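Within the 4 Auto.D36 arrays, 7 of 146 genes and lists examined had a single animal far from the others, where chance gives about 1 in 20. CCNB2 was low in R.202, at a log2 level of 6.31 against 7.86 in the next animal. CYBB was high in R.62, at 9.47 against 6.76 in the next. R.200 was low in AUTS2 (6.97, next 8.55) and in SLC16A10 (3.73, next 4.03). EIF3L was low in R.62, at 10.29 against 11.60 in the next. The mean level of the naive and central memory list was 8.30 in R.200, against 8.96 in the next animal, and that of the costimulation list 7.75, against 8.08.

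A difference between day 36 and day 14 passed the test for 20 named genes, and for none of them with the actin ratio as a covariate. Auto.D36 was higher in LOC709412 (3.63), HSH2D (3.26), TST (3.18), EIF3L (3.13), STAT3 (3.12), TGFB1 (2.45), CD6 (2.31), CX3CR1 (2.26), CCR2 (2.05), VSIR (1.87), TPI1 (1.31), ATP5F1B (1.16), CD4 (1.04), JAK3 (0.99) and DHCR7 (0.85). It was lower in MICAL1 (-1.29), PDCD2L (-1.28), ZNF233 (-1.18), GNRH1 (-1.14) and PRKCA (-1.09).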

How the results depend on the processing

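Against healthy animals the 2937 called probe sets became 4845 without a batch term, 4615 with array weights, 1383 within batch 4, 191 within batch 2 (where 1 recipient is assumed to vary like the other groups), 650 at a 2-fold minimum, 1359 with the actin ratio as a covariate and 82 with the replicate block. Leaving out 1 recipient gave 1021 to 3523. Of 89 named genes called, 13 were called with the replicate block, 51 with the actin covariate, 50 without R.200 and 47 without R.201. Within batch 2 KLF7 (0.10), PECAM1 (0.23), TGFB1 (-0.14), STAT3 (-0.0402) and DHCR7 (-0.28) changed sign, and SMAD3 did so when all its probe sets were averaged (0.12). Averaging all probe sets moved the called differences of FCN1 (1.14), CYBB (1.21), MKI67 (1.20), TPI1 (0.42), TGFB1 (0.57), ITGB2 (1.60), LOC699035 (-1.47), MAML3 (-1.15), RASGRF2 (-1.11), AXIN2 (-0.78) and SLC22A23 (-0.58) by over 1.5 times. The causes were not tested.

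Against Auto.D14 the 2240 became 7 with the replicate block, 7878 with array weights, 1452 at a 2-fold minimum, 0 with the actin covariate and 0 without arrays of high actin ratio. Leaving out 1 animal gave 136 (without Auto.D14 of R.202) to 5336 (without Auto.D14 of R.200), and 166 without Auto.D14 of R.201. Against Auto.D100 the count of 0 became 4 without a batch term, 564 with the replicate block and 16 with array weights, and 0 to 2 without 1 animal. The other planned settings moved none of these 3 counts by over 1.5 times.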
